A study of Homo sapiens with 6 samples.

Results

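A set of 10 genes of cellular iron handling and ferroptosis was followed by RNA sequencing of SW872-S cells, an established human liposarcoma line, in 3 libraries labelled TP53INP2 OE (called TP53INP2_OE here) and 3 libraries labelled TP53INP2 NC (called NC). They are FTH1, FTL, NCOA4, TFRC, SLC40A1, SLC11A2, IREB2, HMOX1, GPX4 and ACSL4, taken by symbol, and all 10 were found among the 60843 genes of the deposited table. TP53INP2_OE cells carried a plasmid that overexpresses TP53INP2, an autophagy protein, and NC cells were its negative control, with the line and the culture medium shared by both groups. The sources used here do not say whether the plasmid was selected for, whether the cells are 1 clone, what NC cells carried, or whether the replicates are separate cultures. A p-value below therefore measures no more than the variation among these 6 libraries, and that variation may be technical. The design text speaks of a pair of cell sources without naming them, and the labels give SW872-S throughout.

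Iron enters most cells bound to transferrin through the transferrin receptor and crosses the endosomal membrane through a divalent metal transporter. Cytosolic iron that is not used is stored inside ferritin, a shell of heavy and light chains, and is released when the receptor NCOA4 delivers ferritin to autophagosomes. Iron regulatory proteins bind hairpins in messenger RNAs, called iron-responsive elements, when iron is scarce: a hairpin in the 5′ untranslated region blocks translation of the ferritin and ferroportin messages, and hairpins in the 3′ untranslated region protect the transferrin receptor message from decay. Free iron also drives the peroxidation of membrane lipids, and ferroptosis is the form of cell death that follows when that peroxidation is not held back.

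The hairpins are shown because those of the ferritin, ferroportin and transferrin receptor messages set apart regulation by translation from regulation by decay. The search itself does not sort messages in this way. RNA levels do not report on translation. They reflect synthesis and decay together, which these data do not separate. GENCODE release 29 transcripts on GRCh38 were searched on the transcript strand for CNNNNNCAGTGN followed by 5 bases, with the 5 bases on either side of the loop able to pair, G with U included. The SLC11A2 line has 1 unpaired position in this stem and the other lines have none. Each line gives 30 bases, 5′ to 3′ along the transcript, and the capitals mark the first 5 bases of the loop.
FTH1 5′ hairpin, chr11:61967574-61967603, minus strand: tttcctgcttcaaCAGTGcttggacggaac
FTL 5′ hairpin, chr19:48965334-48965363, plus strand: tctcttgcttcaaCAGTGtttggacggaac
SLC40A1 5′ hairpin, chr2:189580661-189580690, minus strand: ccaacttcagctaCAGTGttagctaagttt
TFRC 3′ hairpin, chr3:196050979-196051008, minus strand: taattatcggaagCAGTGccttccataatt
TFRC 3′ hairpin, chr3:196050575-196050604, minus strand: acattatcgggagCAGTGtcttccataatg
TFRC 3′ hairpin, chr3:196050510-196050539, minus strand: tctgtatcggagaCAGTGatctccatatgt
TFRC 3′ hairpin, chr3:196050463-196050492, minus strand: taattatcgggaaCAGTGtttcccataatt
SLC11A2 3′ hairpin, chr12:50988269-50988298, minus strand: tagccatcagagcCAGTGtgtttctatggt

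The FTH1 and FTL windows were the same at 27 of 30 positions. With every stem base paired, 3 of the 10 genes held a match in the 5′ untranslated region, against 0.183% of 19669 protein-coding genes, and TFRC alone of the 10 held one in the 3′ untranslated region, against 0.671%. The pattern is that of the known hairpins in ferritin, ferroportin and transferrin receptor messages, so these matches were fixed in advance and test nothing. Allowing 1 unpaired position in the stem added SLC11A2 and IREB2 in the 3′ untranslated region, at a level of matching that 4.61% of protein-coding genes reached. The IREB2 match is not printed above. The SLC11A2 hairpin lay in 5 of its 18 protein-coding transcripts and the SLC40A1 hairpin in 1 of 5. The deposited values are per gene, so transcripts with and without a hairpin were not separated. A match describes the letters and is no measure of binding.

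The 6 libraries held between 16038062 and 17607612 reads assigned to genes. TP53INP2 itself was at 18.9, 23.4 and 27.1 FPKM in TP53INP2_OE replicates 1 to 3, against 10.6, 9.45 and 9.67 FPKM in NC, a log2 fold change of 1.13 (limma, adjusted p = 0.00282). Of 7 mesenchymal markers 4 averaged at least 0.5 FPKM, led by VIM, while COL1A2, COL3A1 and THY1 were below it. Of 5 adipocyte markers, ADIPOQ, FABP4 and LEP, which mark mature adipocytes, were at 0 in all libraries. PLIN1 was at 0.065 to 0.123 FPKM in TP53INP2_OE and 0 to 0.032 FPKM in NC. CIDEC was at 0.032 FPKM in TP53INP2_OE replicate 1 and at 0 elsewhere. The 4 erythroid and 4 macrophage markers, from cell types rich in haem and iron genes, each averaged under 0.5 FPKM. Of 3 endothelial markers all 3 were above that level, and their sum was 32.0 to 33.4 FPKM in TP53INP2_OE and 34.5 to 39.2 FPKM in NC, mostly CDH5. Their part in the results below was not tested.

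Before transcript GC content was taken into account, 5 of the 9 genes that could be tested were higher in TP53INP2_OE, and 1 was lower. NCOA4, TFRC, SLC11A2, IREB2 and ACSL4 rose by 16.5% to 26.6%, GPX4 fell by 16.5%, and FTH1, FTL and HMOX1 did not pass the test. SLC40A1 had no read in any library. In bulk RNA, fewer cells expressing a gene and less of its RNA per cell cannot be told apart. Over all 14791 genes tested, 16.4% were called higher and 18.6% lower (limma on log2(FPKM + 1), adjusted p below 0.05). Those are 2430 and 2753 genes, against 1454 and 1811 without NC replicate 1 and 1606 higher without NC replicate 2. Once a fit on GC content and gene length had been subtracted from every library (GC correction), none of the 9 genes passed in either direction, with 4.53% of all genes called higher and 5.88% lower, and the lowest adjusted p among the 9 was 0.0508 for NCOA4 (limma).

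**Figure D1:**
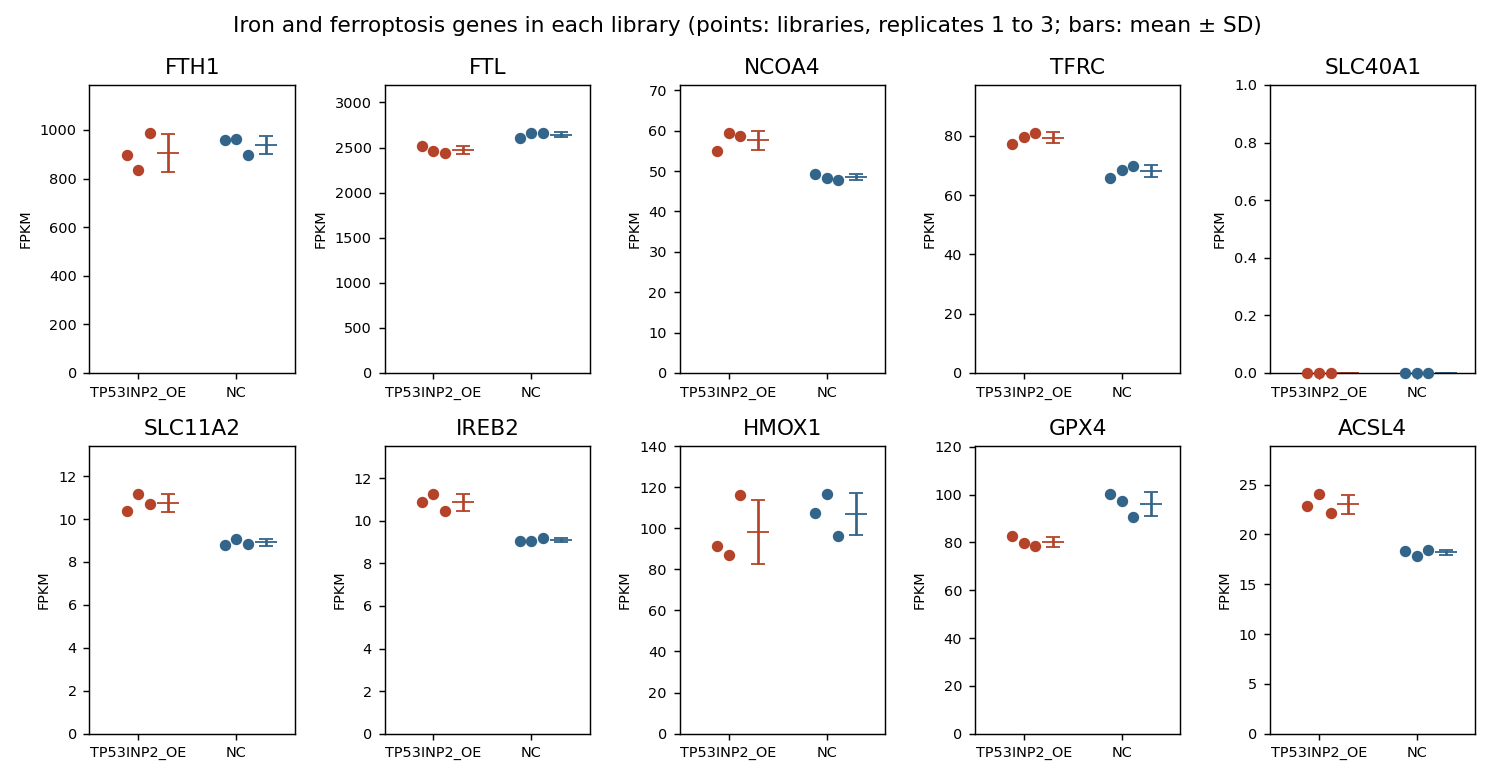
FPKM of each of the 10 genes in the 3 TP53INP2_OE libraries (red, left) and the 3 NC libraries (blue, right), with the mean and SD beside the points, each panel on its own axis from 0. NCOA4, TFRC, SLC11A2, IREB2 and ACSL4 lie higher in every TP53INP2_OE library than in any NC library, GPX4 and FTL lie lower, FTH1 and HMOX1 overlap, and SLC40A1 is at 0. Of all tested genes, 25.2% lie higher in this way and 25.6% lower.

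The fold changes of all genes followed transcript GC content, which bears on each value below. Over 11270 protein-coding genes, which are not independent replicates, GC content and the log2 fold change had a Spearman correlation of -0.783. A library's deviation from the gene means changed by -0.145 to -0.0654 on the log2 scale per 10 points of GC content in TP53INP2_OE, and by 0.0713 to 0.117 in NC. The slope separates the groups completely, so a shift tied to GC content cannot be told apart from the effect of TP53INP2. Each tested gene is therefore set beside the other tested genes of its own decile of GC content.

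Ferritin was the most abundant product of the set. FTL (chromosome 19, positions 48965309 to 48966879), the light chain that favours iron mineral formation, was at 2519, 2465 and 2436 FPKM in TP53INP2_OE, against 2607, 2657 and 2662 FPKM in NC. All 3 TP53INP2_OE libraries lay below all 3 NC libraries, as did 25.6% of tested genes, by a mean of 6.38%. Its log2 fold change was -0.095 with a 95% interval of -0.18 to -0.012 and did not pass over all genes (limma, adjusted p = 0.0749). It passed as lower when reads recovered from the FPKM values were tested with voom (limma, adjusted p = 0.00833). With GC content and length fitted out the sign turned, to 0.096 (interval 0.011 to 0.18, limma adjusted p = 0.138). The FTL transcript had 56.3% GC, in a decile where 37.0% of genes were called lower and 1.65% higher.

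FTH1 (chromosome 11, positions 61959718 to 61967634), the heavy chain with the ferroxidase activity that loads iron, was at 897, 834 and 988 FPKM in TP53INP2_OE, against 959, 962 and 896 FPKM in NC. The groups overlapped, and TP53INP2_OE held both the lowest and the highest library. The log2 fold change was -0.054 with an interval of -0.21 to 0.11 (limma, adjusted p = 0.575), and -0.0029 with an interval of -0.15 to 0.14 after GC correction (limma, adjusted p = 0.983). Without TP53INP2_OE replicate 2 the uncorrected value was 0.0044, so its sign rested on that library. At 50.1% GC, FTH1 belonged to the decile with the median fold change nearest to 0, at -0.018, where 5.77% of genes were called higher and 10.6% lower.

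Among all 60843 genes ordered by mean FPKM, FTL was at place 6 and FTH1 at place 18 in TP53INP2_OE, and at places 5 and 16 in NC. Both chains together took 0.384% to 0.415% of assigned reads in TP53INP2_OE and 0.416% to 0.427% in NC. The ranges did not overlap, but the nearest libraries were at 0.4147% and 0.4162%. These shares are not corrected for GC content. The FTH1 share overlapped between groups, and the FTL share lay apart, a gene whose fold change turned sign after GC correction. By FPKM, 25.6% of all tested genes had every TP53INP2_OE library below every NC library. The FTH1 to FTL ratio of FPKM was 0.356, 0.338 and 0.406 in TP53INP2_OE, against 0.368, 0.362 and 0.336 in NC. These ratios overlapped (exact two-sided permutation test, p = 0.8, where 0.1 is the smallest p that 3 against 3 libraries can give), and being taken within a library they do not depend on its scaling. They do depend on GC content: the log2 difference was 0.041 before and -0.099 after GC correction. The corrected ratios also overlapped (exact permutation test, p = 0.4).

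Ferritin genes have many near-identical copies, so some reads could be split between them. The table held 40 named ferritin pseudogenes, 24 of FTH1 and 16 of FTL, of which 20 had a read in at least 1 library. Reads on the FTH1 pseudogenes came to 0.804% to 1.15% of those on FTH1 in TP53INP2_OE and to 0.722% to 0.902% in NC, and those on the FTL pseudogenes to at most 0.0298% of FTL. The ratio of FTH1 with its pseudogenes to FTH1 alone did not separate the groups (exact permutation test, p = 0.3). FTH1P7 averaged 11.4 ± 0.42 FPKM in TP53INP2_OE and 9.90 ± 2.32 FPKM in NC (SD, n = 3 each), FTH1P2 9.47 ± 1.36 and 9.57 ± 1.69, and FTH1P23 3.78 ± 0.36 and 3.38 ± 0.45, in the same order of groups. FTH1P8 was called higher, at 6.19 ± 0.83 FPKM in TP53INP2_OE against 4.78 ± 0.43 FPKM in NC (log2 fold change 0.31, limma adjusted p = 0.0492), on 40 to 61 reads per library, and did not pass after GC correction (limma, adjusted p = 0.0905). It also did not pass when any 1 library other than TP53INP2_OE replicate 3 was left out (limma, adjusted p 0.0600 to 0.143). Reads assigned to a pseudogene may come from FTH1, so these values are uncertain.

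NCOA4 (chromosome 10, positions 46005088 to 46030714), the cargo receptor that carries ferritin into autophagosomes, was at 55.0, 59.5 and 58.6 FPKM in TP53INP2_OE, against 49.2, 48.3 and 47.8 FPKM in NC. Every TP53INP2_OE library lay above every NC library, as did those of 25.2% of tested genes. It rose by 19.1%, or 0.25 on the log2 scale (standard error 0.039, limma adjusted p = 0.00533). Of the 9 tested genes it kept the largest size after GC correction, at 0.14 with an interval of 0.056 to 0.22, and there fell just short of the threshold (limma, adjusted p = 0.0508). Corrected FPKM values were still apart, at 53.4, 56.3 and 56.7 in TP53INP2_OE against 51.5, 50.4 and 49.2 in NC. The corrected values of FTL, TFRC, SLC11A2 and ACSL4 were apart in the same direction, so this was not particular to NCOA4. The share of all tested genes that lay apart after correction is not given here. NCOA4 had 43.1% GC, in a decile with 20.9% of genes called higher and a median log2 fold change of 0.093.

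TFRC (chromosome 3, positions 196027183 to 196082096), the transferrin receptor whose 3′ hairpins are printed above, was at 77.3, 79.7 and 81.0 FPKM in TP53INP2_OE, against 65.8, 68.6 and 69.9 FPKM in NC. The groups did not overlap, with every TP53INP2_OE library above every NC library, as in 25.2% of tested genes. It rose by 16.5% (log2 fold change 0.22, standard error 0.036, limma adjusted p = 0.00603), and after GC correction the value was 0.059 with an interval of -0.012 to 0.13 (limma, adjusted p = 0.253). Its transcript had 41.5% GC, and 30.9% of genes in that decile were called higher. The ratio of TFRC to FTH1, messages with hairpins at opposite ends, was 0.0862, 0.0955 and 0.0820 in TP53INP2_OE and 0.0687, 0.0713 and 0.0781 in NC. All 3 TP53INP2_OE ratios were above the NC ratios before correction (log2 difference 0.27, exact permutation test, p = 0.1, the smallest possible). After GC correction the ratios overlapped, with a log2 difference of 0.063 (exact permutation test, p = 0.4).

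SLC11A2 (chromosome 12, positions 50979401 to 51028566), the metal transporter DMT1 that moves iron out of the endosome, was at 10.4, 11.2 and 10.7 FPKM in TP53INP2_OE, against 8.79, 9.07 and 8.85 FPKM in NC. The groups lay apart, as did those of 25.2% of tested genes in this direction, with more spread in TP53INP2_OE. It rose by 20.7% (log2 fold change 0.25, standard error 0.043, limma adjusted p = 0.00684), and had a corrected value of 0.12 with an interval of 0.030 to 0.20 that did not pass (limma, adjusted p = 0.0935). At 43.0% GC it belonged to the same decile as TFRC.

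SLC40A1 (chromosome 2, positions 189560579 to 189583758), ferroportin, the iron exporter of vertebrate cells, was listed at 0 in all 6 libraries. The recovered read count was 0 in each, which allows up to 0.0403 to 0.0428 FPKM per TP53INP2_OE library and 0.0389 to 0.0425 FPKM per NC library, taking 3 reads as the limit for counting error. Genes that every cell uses, such as TBP and HPRT1, had at least 8.60 and 75.2 FPKM. Of 2 ferroxidases that partner ferroportin, HEPH was at 0 in TP53INP2_OE and averaged 0.0055 FPKM in NC, and CP averaged 0.11 and 0.057 FPKM in TP53INP2_OE and NC. The 5′ hairpin of SLC40A1 therefore belongs to a message that was not detectable at this depth, and no fold is given.

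IREB2 (chromosome 15, positions 78437431 to 78501453) encodes iron regulatory protein 2, which binds the hairpins and is itself degraded when iron is plentiful. It was at 10.9, 11.3 and 10.4 FPKM in TP53INP2_OE, against 9.03, 9.05 and 9.20 FPKM in NC. Each TP53INP2_OE library was above each NC library, as for 25.2% of tested genes. IREB2 rose by 19.4% (log2 fold change 0.23, standard error 0.042, limma adjusted p = 0.00762). The corrected log2 fold change was 0.022 with an interval of -0.064 to 0.11 (limma, adjusted p = 0.745), and the corrected libraries overlapped. At 38.3% GC it was in the decile with the lowest GC content, where 48.2% of genes were called higher and 0.48% lower.

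HMOX1 (chromosome 22, positions 35380361 to 35394207), haem oxygenase 1, which frees iron from haem, was at 91.4, 87.2 and 116 FPKM in TP53INP2_OE, against 107, 117 and 96.4 FPKM in NC. It had the widest spread of the set relative to its level, and the groups overlapped. The log2 fold change was -0.13 with an interval of -0.41 to 0.15 (limma, adjusted p = 0.444), and turned to 0.099 with an interval of -0.16 to 0.36 after GC correction (limma, adjusted p = 0.610). The HMOX1 transcript had 58.1% GC, in a decile where 0.55% of genes were called higher and 49.2% lower.

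GPX4 (chromosome 19, positions 1103926 to 1106791), the selenoenzyme that reduces lipid hydroperoxides and holds ferroptosis back, was at 82.6, 79.7 and 78.3 FPKM in TP53INP2_OE, against 100, 97.4 and 90.5 FPKM in NC. No library of one group reached the other, and 25.6% of tested genes lay apart in this direction. It fell by 16.5% (log2 fold change -0.26, standard error 0.046, limma adjusted p = 0.00762). After GC correction the sign turned, to 0.043 with an interval of -0.051 to 0.14 (limma, adjusted p = 0.533), and the corrected libraries overlapped. With 62.5% GC it was the most GC-rich of the 10 genes, in the decile with the highest GC content, where 58.5% of genes were called lower and the median log2 fold change was -0.31.

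ACSL4 (chromosome X, positions 109624244 to 109733403), the acyl-CoA synthetase that prepares polyunsaturated fatty acids for membrane lipids and so makes them open to peroxidation, was at 22.8, 24.1 and 22.2 FPKM in TP53INP2_OE, against 18.3, 17.9 and 18.4 FPKM in NC. The groups lay well apart, and the NC libraries were close to each other. Of all tested genes, 25.2% had every TP53INP2_OE library above every NC library. Its rise of 26.6% was the largest of the 10 genes (log2 fold change 0.32, standard error 0.041, limma adjusted p = 0.00327). The corrected value was 0.11 with an interval of 0.037 to 0.19 (limma, adjusted p = 0.0733). ACSL4 had the lowest GC content of the set, 37.4%, and shared its decile with IREB2, where 48.2% of genes were called higher.

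The ratio of ACSL4 to GPX4, a gene that feeds lipid peroxidation over one that opposes it, was 0.276, 0.302 and 0.283 in TP53INP2_OE, against 0.182, 0.184 and 0.204 in NC. The ratio was higher in every TP53INP2_OE library, with a log2 difference of 0.60 (exact permutation test, p = 0.1, the smallest possible). These genes have the lowest and the highest GC content of the 9 tested. With GC content and length fitted out the ratios overlapped and the log2 difference was 0.076 (exact permutation test, p = 0.2).

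**Figure D2:**
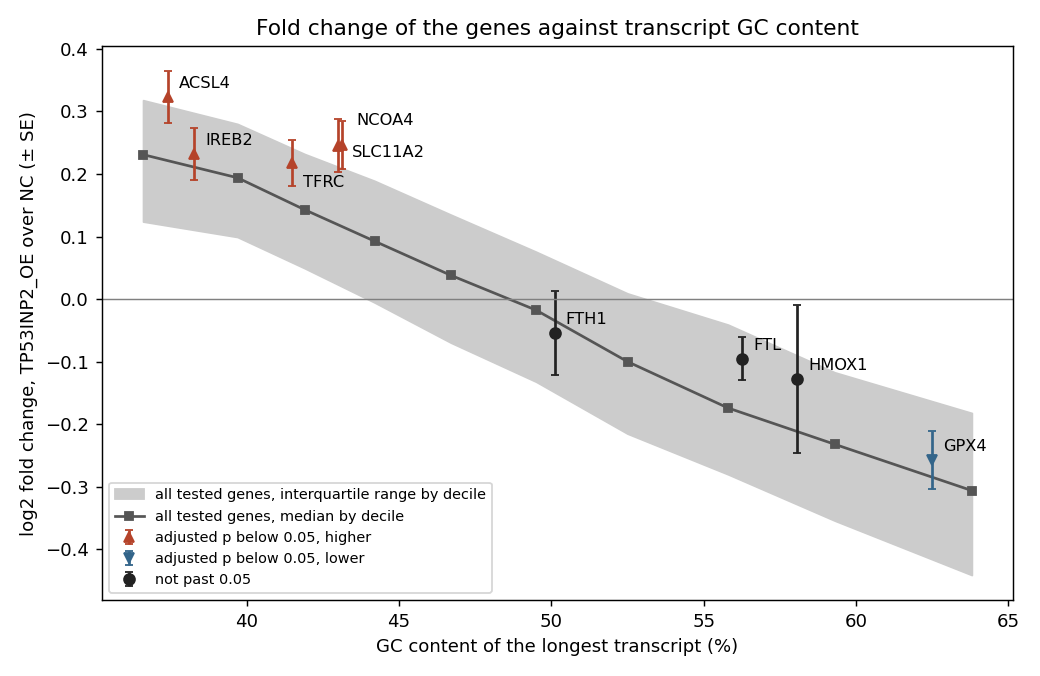
Log2 fold change of TP53INP2_OE over NC (± SE) against the GC content of the longest transcript for the 9 tested genes, over the median and interquartile range of all tested genes in deciles of GC content. The genes called higher (red) have 37.4% to 43.1% GC and GPX4, called lower (blue), has 62.5%, while the medians run from 0.23 in the lowest decile to -0.31 in the highest. NCOA4, SLC11A2 and ACSL4 lie above the interquartile range of their deciles.

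**Figure D3:**
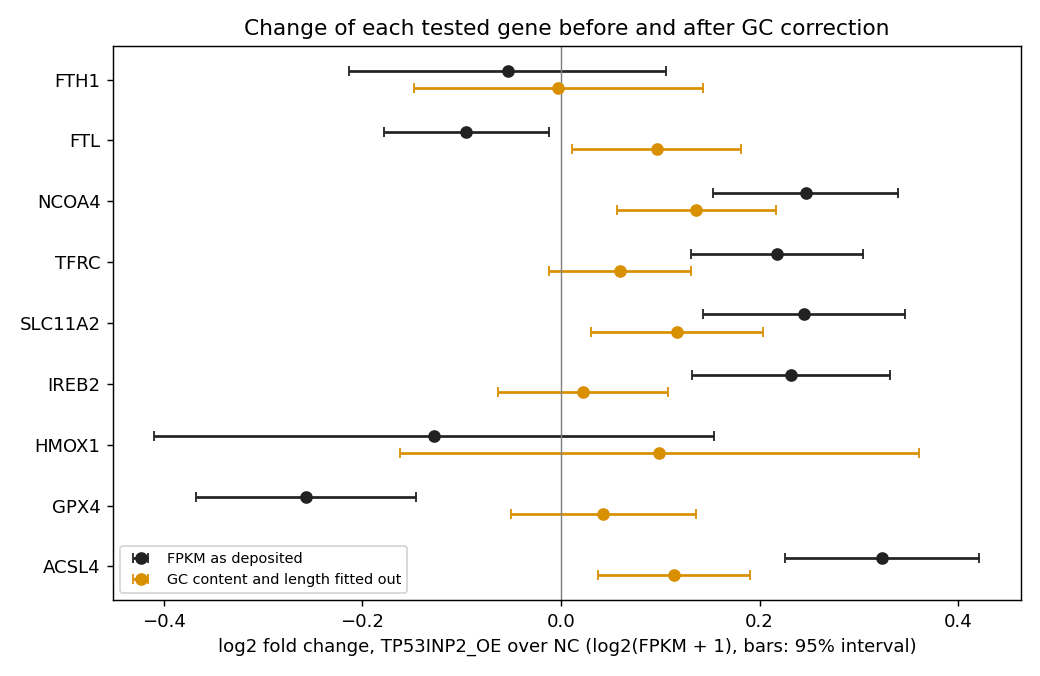
Log2 fold change with its 95% interval for each tested gene from FPKM as deposited (black) and with GC content and gene length fitted out (orange). The corrected values lie between -0.0029 for FTH1 and 0.14 for NCOA4, and FTL, HMOX1 and GPX4 change sign.

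On the FPKM scale, which is per length, the order of levels in TP53INP2_OE was FTL, FTH1, HMOX1, GPX4, TFRC, NCOA4, ACSL4, IREB2, SLC11A2 and SLC40A1, and it was the same in NC. In TP53INP2_OE, GPX4 and TFRC overlapped, as did IREB2 and SLC11A2, while the other neighbours were apart. In NC, HMOX1 and GPX4 overlapped, as did IREB2 and SLC11A2. GPX4 and TFRC, which averaged 80.2 and 79.3 FPKM in TP53INP2_OE, were apart in NC at 96.1 and 68.1 FPKM.

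The genes around these 10 were described through 6 lists with 93 symbols, of which 81 passed the filter of 0.5 FPKM. Of the 81, 20 were called higher and 18 lower, with a median log2 fold change of -0.018, against a median of 0.0032 over all tested genes. The 18 lower became 11 without NC replicate 1 and 10 without NC replicate 2. After GC correction 5 were called higher and 5 lower. The 5 higher were STEAP1, GCH1, MBOAT2, NFE2L2 and ACSL3, and the lower ones included PCBP1, GLRX5, CISD3 and NFS1. All of these were genes other than the 10 described, and the difference between the lists and the 10 genes was not tested. With the replicate number added to the corrected fit (the replicate block), 0 listed genes were called higher and 2 lower, GLRX5 and CISD3. Over all genes 267 were then higher and 401 lower. The shares over all tested genes were 16.4% higher and 18.6% lower before correction and 4.53% and 5.88% after it.

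Of 12 tested iron uptake genes, 6 rose and 2 fell, with a median log2 fold change of 0.12, where 16.4% of all genes rose and 18.6% fell. The 2 falls became 0 without TP53INP2_OE replicate 3, NC replicate 1 or NC replicate 2, and 1 when any other library was left out. STEAP1, of the family of endosomal and cell-surface metalloreductases, rose to 14.9 ± 0.54 FPKM in TP53INP2_OE, against 11.9 ± 0.44 FPKM in NC (SD, n = 3 each), and had a corrected log2 fold change of 0.19 that passed (limma, adjusted p = 0.0349). With the replicate block added to the corrected fit, STEAP1 did not pass (limma, adjusted p = 0.0852). CYBRD1, a ferric reductase, rose by 0.28 on the log2 scale. STEAP3, the reductase of the transferrin cycle, fell by 0.18 and TFR2, the other transferrin receptor, at 1.70 FPKM in TP53INP2_OE and 2.19 FPKM in NC, fell by 0.24. TFR2 did not pass when any 1 of the 6 libraries was left out (limma, adjusted p 0.0502 to 0.116), nor STEAP3 without TP53INP2_OE replicate 3, NC replicate 1 or NC replicate 2 (0.0635 to 0.0792). After correction CYBRD1 (0.13), STEAP3 (0.0095) and TFR2 (0.035) did not pass, and STEAP1 was the single call among the 12.

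In the storage, export and sensing list, 2 of 9 tested genes rose, NCOA4 and IREB2, and 2 fell, with a median of 0.0019, against 16.4% and 18.6% of all genes. PCBP1, a chaperone that hands iron to ferritin, fell to 11.2 ± 1.17 FPKM in TP53INP2_OE, against 15.4 ± 0.65 FPKM in NC (log2 fold change -0.43, limma adjusted p = 0.00628), and passed after correction at -0.27 (limma, adjusted p = 0.0484). With the replicate block added to the corrected fit, PCBP1 did not pass (limma, adjusted p = 0.0541). HERC2, a ubiquitin ligase that targets NCOA4, fell by 0.17, did not pass when TP53INP2_OE replicate 3 or any 1 NC library was left out (limma, adjusted p 0.0620 to 0.0686), which left 1 fall in the list, and had a corrected value of -0.084 that did not pass. The genes below the filter were SLC40A1, FTMT, HEPH and CP.

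Mitochondrial iron and iron-sulfur genes had 2 rises and 4 falls among 16, with a median of -0.030, and 3 falls after correction. Over all genes 16.4% rose and 18.6% fell, and 5.88% fell after correction. The 2 rises became 1 without TP53INP2_OE replicate 2 or 3 or NC replicate 1 or 2, where CISD2 did not pass (limma, adjusted p 0.0508 to 0.0714). CISD3, a mitochondrial iron-sulfur protein, fell to 6.77 ± 0.50 FPKM in TP53INP2_OE, against 10.7 ± 0.51 FPKM in NC (log2 fold change -0.59, limma adjusted p = 0.00281), with a corrected value of -0.39 (limma, adjusted p = 0.0126). GLRX5, a glutaredoxin of iron-sulfur cluster transfer, fell to 18.8 ± 1.31 FPKM in TP53INP2_OE, against 24.1 ± 0.45 FPKM in NC, and its log2 fold change was -0.34 before and -0.38 after correction (limma, adjusted p = 0.00528 and 0.0140). NFS1, the cysteine desulfurase that supplies the sulfur, fell by 0.22 before and by 0.25 after correction (limma, adjusted p = 0.0131 and 0.0177), and uncorrected did not pass without NC replicate 2 (adjusted p = 0.0503). CISD2, the endoplasmic reticulum relative of CISD3, rose by 0.33 and ABCB8, a mitochondrial transporter, fell by 0.31, and neither passed after correction, at 0.12 and -0.071.

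In the haem list 4 of 14 tested genes fell and none rose, where 18.6% of all genes fell and 16.4% rose. The 4 falls became 2 without NC replicate 1 or NC replicate 2. The median was -0.12. UROD, an enzyme of haem synthesis, fell to 14.6 ± 0.15 FPKM in TP53INP2_OE, against 17.7 ± 0.95 FPKM in NC. HMOX2, the constitutive relative of HMOX1, fell by 0.29, and BLVRB, a biliverdin reductase, fell by 0.36. BLVRB did not pass when any 1 NC library was left out (limma, adjusted p 0.0560 to 0.0982), nor HMOX2 without TP53INP2_OE replicate 2, NC replicate 1 or NC replicate 2 (0.0553 to 0.0714). The corrected values of UROD (-0.16), HMOX2 (-0.10) and BLVRB (-0.13) did not pass. After correction 1 of the 14 genes was still called lower, against 5.88% of all genes.

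Of 18 ferroptosis defence genes, 4 rose and 4 fell, with a median of -0.025, and 3 rose and none fell after correction. Over all genes 16.4% rose and 18.6% fell, and 4.53% and 5.88% after correction. GCH1, the first enzyme of tetrahydrobiopterin synthesis, rose to 5.80 ± 0.21 FPKM in TP53INP2_OE, against 4.30 ± 0.19 FPKM in NC (log2 fold change 0.36), and passed after correction at 0.26 (limma, adjusted p = 0.0213). MBOAT2, a phospholipid acyltransferase, rose by 0.40 before and 0.20 after correction (limma, adjusted p = 0.0373). NFE2L2, which encodes the antioxidant transcription factor NRF2, rose to 19.9 ± 1.57 FPKM in TP53INP2_OE, against 16.0 ± 0.31 FPKM in NC, and had a corrected value of 0.24 (limma, adjusted p = 0.0411). SLC3A2, the heavy chain of the cystine importer, fell by 0.31 and DHODH, a mitochondrial enzyme that reduces ubiquinone, fell by 0.34, and neither passed after correction, at -0.11 and -0.25. DHODH also did not pass without TP53INP2_OE replicate 2 or 3 or NC replicate 1 or 2 (limma, adjusted p 0.0645 to 0.0799). SLC7A11, the light chain of that importer, had a log2 fold change of 0.12 (limma, adjusted p = 0.307), passed without TP53INP2_OE replicate 1 at 0.20 (adjusted p = 0.0499), and had a corrected value of -0.11.

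Ferroptosis lipid genes had 6 rises and 2 falls among 12, with a median of 0.070, and 1 rise after correction. Over all genes 16.4% rose and 18.6% fell, and 4.53% rose after correction. The 2 falls became 1 when any 1 library other than TP53INP2_OE replicate 3 was left out. ACSL3, the relative of ACSL4 that activates monounsaturated fatty acids, rose to 39.2 ± 2.06 FPKM in TP53INP2_OE, against 29.8 ± 0.94 FPKM in NC (log2 fold change 0.38, limma adjusted p = 0.00316), and passed after correction at 0.18 (limma, adjusted p = 0.0292). SAT1, a polyamine acetyltransferase, rose by 0.34, and FAR1 and AGPS, enzymes of ether lipid synthesis, rose by 0.30 and 0.28. The corrected values of SAT1 (0.24), FAR1 (0.089) and AGPS (0.064) did not pass. Of the lipoxygenases, ALOX12 passed the filter, at 1.04 FPKM in TP53INP2_OE and 1.01 FPKM in NC, and ALOX15 and ALOX15B were at 0 in all libraries.

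**Figure D4:**
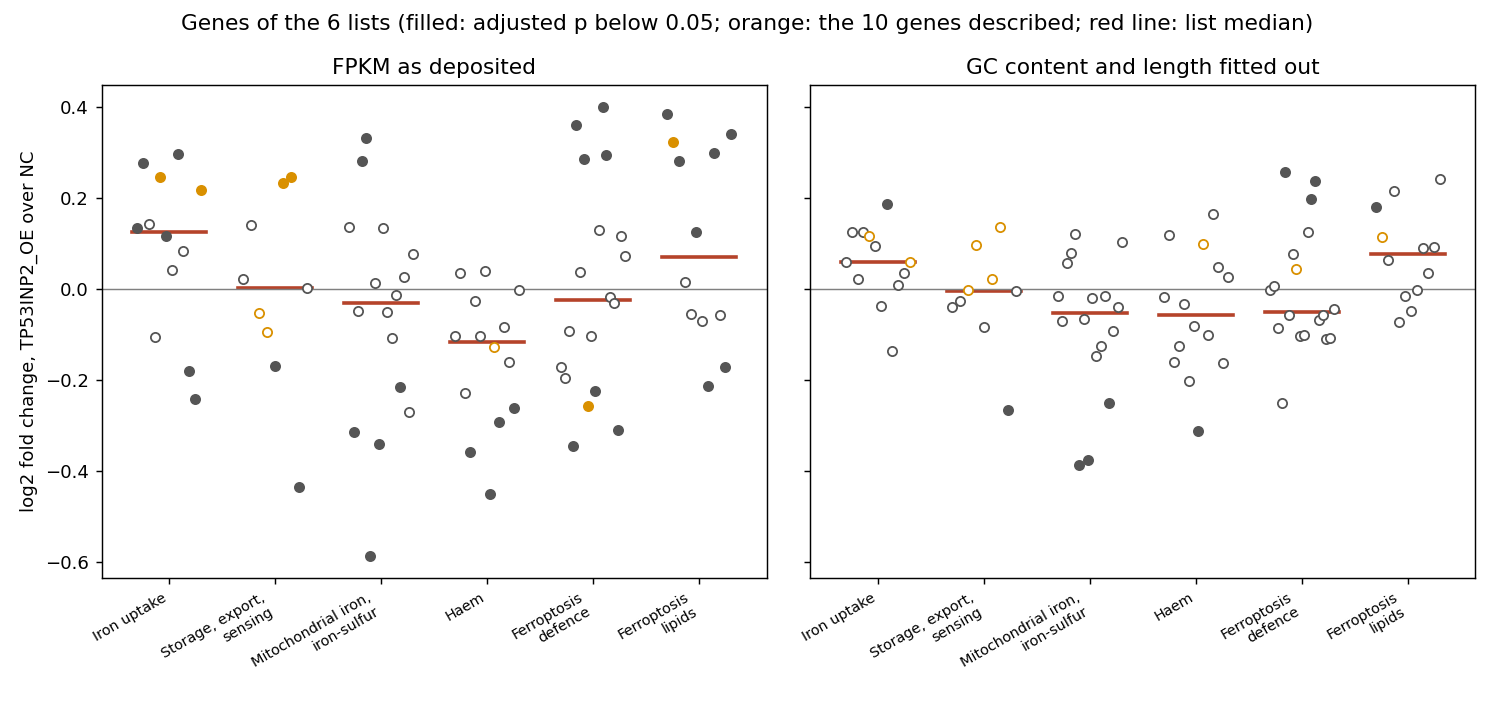
Log2 fold change of TP53INP2_OE over NC for the tested genes of the 6 lists, from FPKM as deposited (left) and with GC content and gene length fitted out (right), with filled points past an adjusted p of 0.05, the described genes in orange and list medians in red. On the left 20 genes are called higher and 18 lower, on the right 5 and 5, none of them orange.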

How the data were processed

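Per the file headers, 1 table deposited by the authors holds FPKM for the 6 libraries (fragments scaled to gene length and library size), with gene name, position and length. Groups and replicate numbers come from the sample titles. Bowtie 0.12.2, GRCh38 and mm8 are listed in the submitters' processing notes without a role. Of the gene IDs 96.2% were in GENCODE release 29, and 99.9% of these were on the same GRCh38 chromosome. The counting step and whether strand was used are not given in the sources used here. FTH1, TFRC, SLC11A2, IREB2 and ACSL4 overlap other annotated genes, each with at most 31 reads in a library.

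The gene length the authors deposited (in bases, a column of the other kind) was used to recover reads: FPKM times length gave whole multiples of 1 step in 100% of values above 0 (tolerance 0.01). Intervals and limits from reads cover counting error only. Genes averaging 0.5 FPKM or more were tested on log2(FPKM + 1) with limma 3.58.1 in R 4.3.3 (trend, Benjamini-Hochberg over all tested genes, threshold 0.05), so fold changes understate those of low genes. For GC correction, deviations of a library from gene means were regressed on natural splines (5 degrees of freedom each) of GC content of the longest GENCODE transcript, known for 98.4% of tested genes, and of log2 gene length, and the fit was subtracted. GC-linked biology is removed with it. Single ratios were compared with exact permutation tests. The fits were tested on simulated data.

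The members and lists were chosen with earlier results of these data known. The text names all members, TP53INP2, up to 4 other genes per list with the largest change past the threshold, and the 4 highest ferritin pseudogenes. NFE2L2, NFS1, SLC7A11, ALOX genes, FTMT, HEPH, CP, TBP and HPRT1 were named after their values were seen. A listed gene that the rule names is not reported here.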

Additional observations from a re-analysis of the deposited data

How the results depend on the processing

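The calls for NCOA4, TFRC, SLC11A2, IREB2, ACSL4 and GPX4 kept their direction and their side of the threshold under all 14 alternatives that leave GC content in place: pseudocount 0.1, a filter of 5 FPKM or none, protein-coding genes, TPM, quantile normalization, voom on recovered reads, the replicate block and each library left out. Their highest adjusted p there was 0.0337 (limma). Members called higher numbered 5 and lower 1 throughout, except 2 lower with voom, where FTL passed.

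After GC correction, 0 members were called higher and 0 lower, also with the replicate block added. All genes then numbered 659 higher and 855 lower (267 and 401 with the block), and the listed genes 5 and 5 (0 and 2 with the block). The signs of FTL (0.096), HMOX1 (0.099), GPX4 (0.043), TFR2 (0.035), SLC7A11 (-0.11) and STEAP3 (0.0095) turned in both. This correction lacks the genes without a known GC content, and its residual degrees of freedom were not reduced for the splines.

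Leaving out each library gave 1454 to 2216 genes higher and 1811 to 2592 lower, the lowest of both without NC replicate 1, and 1606 higher without NC replicate 2. Listed genes numbered 15 to 19 higher and 10 to 17 lower, with 11 lower without NC replicate 1 and 10 without NC replicate 2. Without TP53INP2_OE replicate 2, FTH1 stood at 0.0044, in a range of -0.12 to 0.0044. FTH1P2, at -0.011, turned to 0.0050 with TPM, 0.0098 with quantile normalization, 0.052 and 0.031 without TP53INP2_OE replicates 1 and 3, and 0.12 without NC replicate 2, in a range of -0.11 to 0.12. The cause of these turns was not tested.

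Deviations of same-numbered libraries had correlations of 0.0107 to 0.0170 over genes, and those of differently numbered libraries -0.0272 to 0.015. Correlations this near to 0 cannot decide whether the numbers mark paired cultures, which was not tested. With the replicate block 1980 genes were higher and 2416 lower, and no member changed its call.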

Other observations

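FTH1 and HMOX1 had the same order of libraries within TP53INP2_OE and within NC. FTH1 was highest within TP53INP2_OE in replicate 3, at 988 FPKM, and so was HMOX1, at 116 FPKM. Within NC both were highest in replicate 2, FTH1 at 962 FPKM and HMOX1 at 117 FPKM. Both were lowest within TP53INP2_OE in replicate 2 and lowest within NC in replicate 3. The pair was noticed after the values were seen, as the only tested genes of the 10 whose groups overlap, so no test is given, and both values of a library share its RNA and depth.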
